A study of Saccharomyces cerevisiae with 6 samples.

Results

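The GABA shunt genes of budding yeast were followed through 60 minutes of edelfosine. They were picked by gene ID, by a rule that itself uses no measured value: GAD1 (YMR250W), UGA1 (YGR019W), UGA2 (YBR006W), UGA3 (YDL170W) and UGA4 (YDL210W), 5 of the 5917 genes in the deposited table. All 5 passed the filter on low values that kept 5707 genes. Poly(A) RNA was sequenced from log-phase Saccharomyces cerevisiae grown in synthetic defined medium at 30C. The edelfosine group had 20 uM edelfosine, a synthetic lysophosphatidylcholine analogue, and the vehicle group 0.095% ethanol, with 3 libraries in each. In each group, replicates 1 and 2 came from W303 and replicate 3 from BY4741, both common laboratory strains labelled WT with no other alleles given. Strain and replicate 3 therefore cannot be told apart. The labels call the replicates biological.

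The GABA shunt is a side route around part of the citric acid cycle. Gad1 removes a carboxyl group from glutamate to give gamma-aminobutyrate (GABA), the transaminase Uga1 turns GABA into succinate semialdehyde, and the dehydrogenase Uga2 oxidises that to succinate. Uga4 is a permease that brings in GABA. Uga3 is a zinc cluster transcription factor that switches on genes for GABA use, UGA1 and UGA4 among them, when GABA is present. In yeast, GABA can serve as a nitrogen source, and strains lacking GAD1 are known to tolerate oxidants poorly.

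The stretches of promoter below are shown because they set UGA1 and UGA4, which share the letters known for Uga3, beside GAD1, which has a match to the stress response element. They were read 5′ to 3′ from the RefSeq R64 genome of the S288C strain; the build behind the deposited table is not given in the sources used here, and the W303 sequence may differ. Capitals mark matches to the core of the Uga3 element, to AGGGG, the stress response element, or to the sequence bound by GATA factors, GATAAG, searched on both strands, with no overlap between matches. All 3 genes lie on the plus strand.
GAD1, chrXIII:770588-770687: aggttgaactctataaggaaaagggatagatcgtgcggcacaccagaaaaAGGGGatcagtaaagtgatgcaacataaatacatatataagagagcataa
UGA1, chrVII:524797-524896: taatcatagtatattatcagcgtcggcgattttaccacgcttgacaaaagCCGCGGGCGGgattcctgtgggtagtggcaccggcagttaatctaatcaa
UGA4, chrIV:83820-83919: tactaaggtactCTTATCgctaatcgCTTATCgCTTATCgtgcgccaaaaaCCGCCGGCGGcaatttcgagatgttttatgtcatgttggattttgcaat

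In the window from 600 bases before the start codon to 50 after its first base, the Uga3 core was found in UGA1 and UGA4, beginning 382 and 399 bases before the start. Of 5999 windows of that length in R64, 4.15% held it. UGA4 also had 3 matches to GATAAG just upstream of that core, a motif held by 28.7% of windows, and 1 match to AGGGG. The single AGGGG of GAD1 began 163 bases before the start; 41.8% of the windows held that motif. UGA2 had no match to any of the 3 motifs, and UGA3 had 2 to GATAAG and 1 to AGGGG. In the shorter window of 250 bases before the start, the matches left were AGGGG in GAD1 and 1 GATAAG in UGA3. The Uga3 core was searched as CCG, then 4 bases of any kind, then CGG. A match of letters is a description and not a bound site.

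The genes of the 3 enzymes rose with edelfosine, GAD1 far more than the others, while UGA3 and UGA4 did not pass the test. Thus 3 of 5 genes were called higher and 0 lower, where 27.3% of all tested genes were called higher and 27.3% lower. The same 3 genes were higher in every edelfosine library than in any vehicle library in scaled TPM, as were 30.3% of all tested genes. A gene was called at a Benjamini-Hochberg adjusted p under 0.05 in limma, fitted over all 5707 genes on log2(scaled TPM + 1) with strain as a term. TPM is a share of all transcripts corrected for transcript length, with the same total in each library, so levels can be compared between genes. Changes after scaling are relative to the median gene (0.0086 on the log2 scale); with TPM as deposited the median gene itself shifted by 0.55. In bulk RNA, fewer cells and less RNA per cell cannot be told apart.

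GAD1, for the glutamate decarboxylase that opens the shunt, had 223, 373 and 396 TPM in the edelfosine libraries, against 9.68, 10.6 and 24.4 TPM in the vehicle libraries. Every edelfosine library lay far above every vehicle library, and BY4741 was the highest library in both groups. The means were 331 ± 93.9 TPM with edelfosine and 14.9 ± 8.23 TPM with vehicle (SD, n = 3 each). The log2 change of scaled TPM was 3.87 ± 0.25 (SE; adjusted p = 0.000233, limma), a 14.6-fold rise that ranked 49 among the rises of all tested genes. GAD1 stood at the 88.2, 92.4 and 93.1 percentile of TPM among all genes in the edelfosine libraries, against the 40.1, 46.7 and 61.5 percentile in the vehicle libraries. Its transcript was thus high among all genes with edelfosine and near the middle of them with vehicle.

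UGA1, for the GABA transaminase, had 149, 169 and 133 TPM in the edelfosine libraries, against 29.3, 25.8 and 38.2 TPM in the vehicle libraries. The groups did not overlap and the libraries within each lay close together. Its log2 change of scaled TPM was 1.65 ± 0.17 (adjusted p = 0.000891, limma), or 3.14-fold.

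UGA2, for the succinate semialdehyde dehydrogenase, had 199, 130 and 143 TPM in the edelfosine libraries, against 24.8, 25.3 and 49.8 TPM in the vehicle libraries. The groups did not overlap here either, with W303 replicate 1 highest under edelfosine and BY4741 highest under vehicle. Its log2 change of scaled TPM was 1.66 ± 0.26 (adjusted p = 0.00284, limma), or 3.16-fold. Between same-numbered libraries, the log2 changes of UGA2 in scaled TPM were 2.38, 1.52 and 1.08.

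UGA4, the permease gene, had 6.67, 2.59 and 2.43 TPM in the edelfosine libraries, against 2.05, 2.20 and 0.977 TPM in the vehicle libraries. It was the lowest of the 5 genes in each library, and 1 edelfosine library stood well above the rest. As deposited the groups did not overlap, which was so for 53.5% of tested genes in this direction, whereas in scaled TPM they did. Its log2 change was 0.33 ± 0.28 (95% interval -0.34 to 1.00; adjusted p = 0.351, limma), with pair changes of 0.87, -0.41 and 0.53. It was called higher with TPM as deposited (0.76; adjusted p = 0.0450, limma), where 49.7% of all genes were, and without edelfosine replicate 2 (0.67; adjusted p = 0.0166); without edelfosine replicate 1 its change was 0.051. Over its 15 alternatives adjusted p ran from 0.0166 to 0.856.

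UGA3, the activator gene, had 10.3, 8.57 and 11.9 TPM in the edelfosine libraries, against 12.2, 6.93 and 9.33 TPM in the vehicle libraries. As deposited, the edelfosine values all lay within the range of the vehicle values. In scaled TPM they overlapped only slightly, with 8.20, 6.84 and 9.93 in the edelfosine libraries against 14.7, 9.68 and 10.5 in the vehicle libraries. Its log2 change of scaled TPM was -0.43 ± 0.21 (95% interval -0.94 to 0.08; adjusted p = 0.131, limma). With TPM as deposited the direction turned, to 0.12 (adjusted p = 0.684), so no direction can be given for UGA3.

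**Figure D1:**
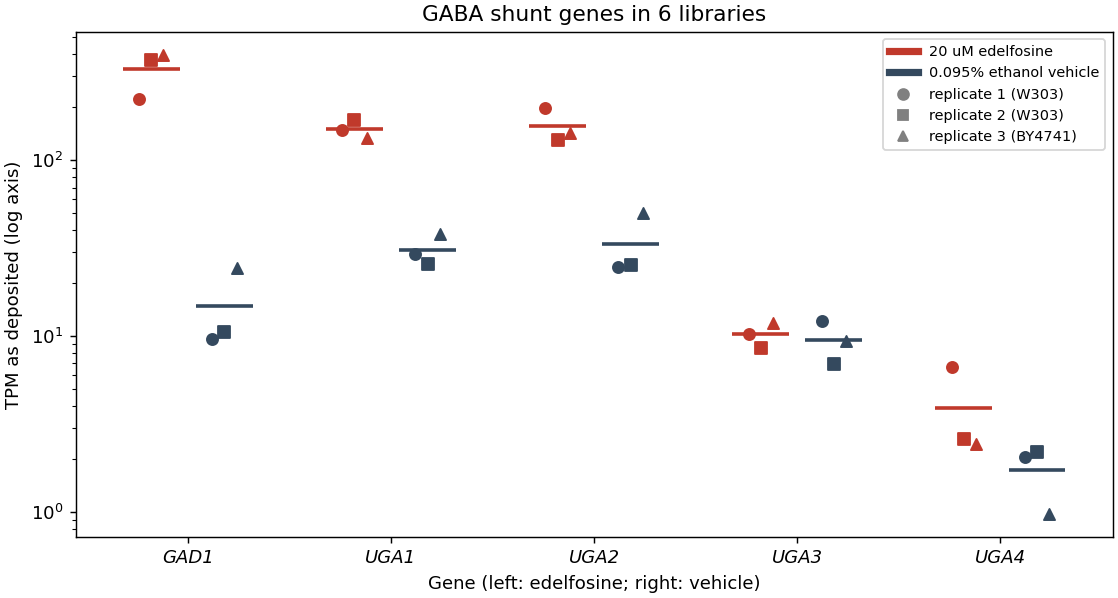
TPM as deposited (log axis) of the 5 genes in each of the 6 libraries, edelfosine in red and vehicle in dark blue; symbols mark the replicate and its strain and lines the mean of 3 libraries. GAD1, UGA1 and UGA2 were higher in every edelfosine library than in any vehicle library, and the 2 groups of UGA3 overlapped.

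**Figure D2:**
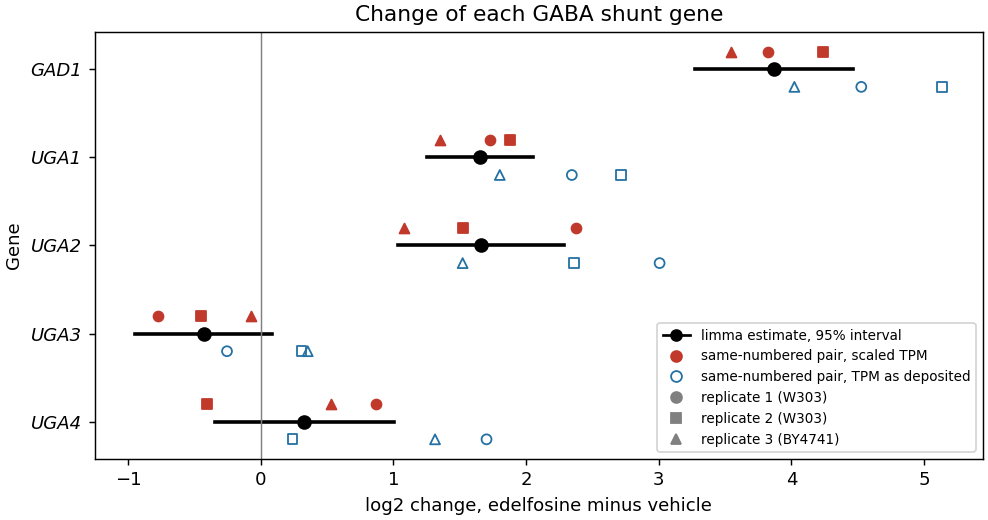
The log2 change of each gene, edelfosine minus vehicle: black points and bars are the limma estimate and its 95% interval, filled red symbols the same-numbered pairs in scaled TPM and open blue symbols those pairs in TPM as deposited. The intervals of UGA3 and UGA4 include 0, and each blue symbol lies to the right of the red symbol of the same pair.

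The order of the levels differed between treatments. With edelfosine the mean TPM ran from GAD1 (331) to UGA2 (157 ± 36.9), UGA1 (150 ± 18.2), UGA3 (10.3 ± 1.68) and UGA4 (3.90 ± 2.40), and UGA2 and UGA1 did not differ beyond their spread. With vehicle the order was UGA2 (33.3 ± 14.3), UGA1 (31.1 ± 6.39), GAD1 (14.9 ± 8.23), UGA3 (9.50 ± 2.66) and UGA4 (1.74 ± 0.666). There UGA2 and UGA1 did not differ beyond their spread either. GAD1 exceeded UGA2 and UGA1 in every edelfosine library and was below both in every vehicle library, its highest vehicle value of 24.4 TPM just under the lowest of UGA2, 24.8 TPM. GAD1 and UGA3 did not overlap with edelfosine and did with vehicle.

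Ratios between genes of the same library do not depend on how libraries are scaled. GAD1 had 1.50, 2.20 and 2.97 times the TPM of UGA1 in the edelfosine libraries, against 0.331, 0.411 and 0.638 times in the vehicle libraries. Each edelfosine library had more GAD1 than UGA1 and each vehicle library less. The mean log2 ratio was higher by 2.27 with edelfosine. Against UGA2 it was higher by 2.27 as well, with ratios of 1.12, 2.88 and 2.77 in the edelfosine libraries and 0.391, 0.420 and 0.489 in the vehicle libraries.

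UGA1 and UGA2 stayed near equal amounts of each other. Their ratio was 0.746, 1.31 and 0.930 in the edelfosine libraries, against 1.18, 1.02 and 0.766 in the vehicle libraries, and the difference of the mean log2 ratios was -0.0085. In all, 10 pairs of genes were compared, and in 6 the ratios did not overlap between treatments: GAD1 to each of the other genes, and UGA1 and UGA2 each to UGA3. Over all pairs of the 5676 tested genes above 0 TPM in every library, 62.6% did not overlap, so the count among these 10 pairs was close to that of genes at large. With 3 libraries against 3, the two-sided exact permutation test cannot go below p = 0.1. These 6 pairs reached that value (adjusted p = 0.167 over the 10 pairs), so none passed a threshold.

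Of the summed TPM of the 3 enzyme genes, GAD1 made up 39.1, 55.5 and 58.9% in the edelfosine libraries, against 15.2, 17.2 and 21.7% in the vehicle libraries. UGA1 made up 26.0, 25.2 and 19.8% in the edelfosine libraries, against 45.9, 41.8 and 34.0% in the vehicle libraries. The transcript of the first step was therefore the most abundant of the 3 in each edelfosine library and the least abundant in each vehicle library. The sum itself averaged 639 ± 58.4 TPM with edelfosine and 79.3 ± 28.7 TPM with vehicle (SD, n = 3 each; two-sided exact permutation p = 0.1, the smallest possible).

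The shunt runs beside the steps of the citric acid cycle from 2-oxoglutarate to succinate. These are catalysed by 2-oxoglutarate dehydrogenase (KGD1, KGD2, and also KGD4 and LPD1) and succinyl-CoA ligase (LSC1, LSC2). The summed TPM of GAD1, UGA1 and UGA2 was 1.23, 1.21 and 1.21 times that of KGD1, KGD2, LSC1 and LSC2 in the edelfosine libraries, against 0.481, 0.636 and 0.796 times in the vehicle libraries. The edelfosine libraries were nearly identical in this ratio and lay above all 3 vehicle libraries (two-sided exact permutation p = 0.1, the smallest possible with n = 3 each). Such a separation was common: ratios of single genes did not overlap for 62.6% of all pairs of tested genes above 0 TPM in every library. This sum was chosen after the values were seen. KGD4 was left out of it, with 204, 269 and 214 TPM in the edelfosine libraries, against 53.3, 40.3 and 50.1 TPM in the vehicle libraries. So was LPD1, with 138, 168 and 181 TPM against 59.5, 47.1 and 60.9 TPM. Counting both would lower the ratio in every library, so its level depends on the genes summed. The ratio concerns transcripts and not the flow through either route.

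**Figure D3:**
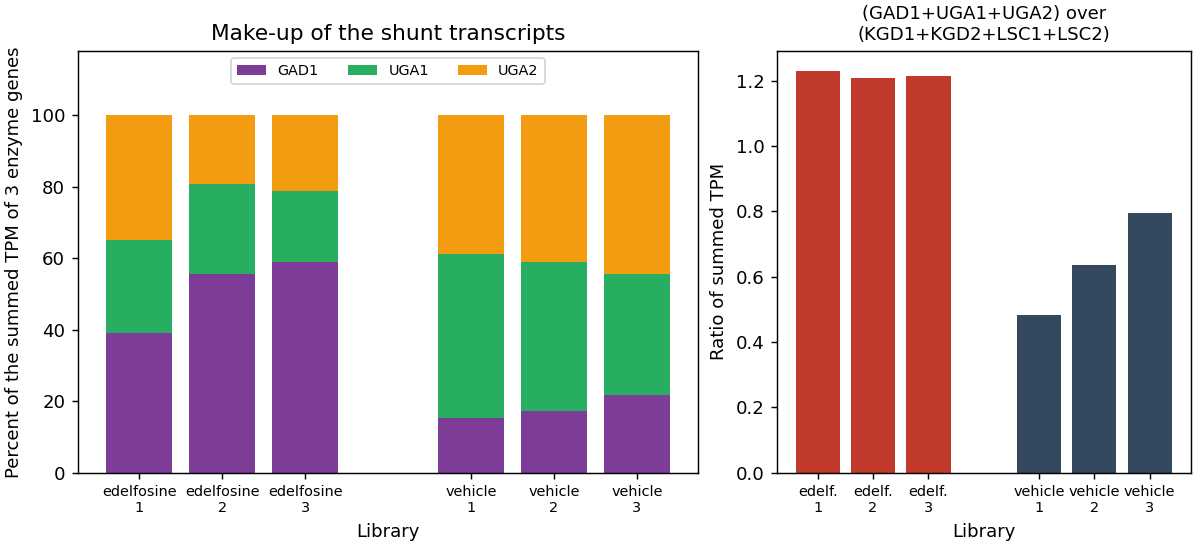
Left, the percent of the summed TPM of GAD1, UGA1 and UGA2 that each gene took in each library; right, that sum divided by the summed TPM of KGD1, KGD2, LSC1 and LSC2, with edelfosine libraries in red and vehicle libraries in dark blue. The GAD1 share was 39.1 to 58.9% with edelfosine and 15.2 to 21.7% with vehicle, and the ratio was 1.21 to 1.23 with edelfosine and 0.481 to 0.796 with vehicle.

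The changes were also compared between the strains. In W303 alone, the log2 changes of GAD1, UGA1 and UGA2 were 4.03, 1.80 and 1.95 (adjusted p = 0.00168, 0.00402 and 0.00715, limma). The single BY4741 pair gave 3.54, 1.35 and 1.08, each smaller than in W303. None of these differences passed: the strain by treatment term, BY4741 minus W303, was -0.49 ± 0.54, -0.45 ± 0.34 and -0.87 ± 0.48 (adjusted p = 1.000 for each, limma, with 2 residual degrees of freedom). That term was called for 0 of 5 genes and for 0 of 5707 in all (0%), with 0 and 176 at an unadjusted p under 0.05. The level of GAD1, treatment aside, was 0.76 ± 0.26 higher in BY4741 on the log2 scale without passing (adjusted p = 0.348, limma; 0.421% of all genes were called for strain).

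The nearest profiles were described by the root mean square difference of log2(scaled TPM + 1), centred per gene, over the 6 libraries, which share the treatment contrast. For GAD1 these were SPI1, a cell wall protein gene (0.18), GPH1, for glycogen phosphorylase (0.26), and NDE2, for a mitochondrial external NADH dehydrogenase (0.30). For UGA1 they were ARA2 (0.079), MSS51, needed to translate the COX1 mRNA (0.080), and COX23, for a cytochrome oxidase assembly factor (0.11). For UGA2 they were PDR5, a drug efflux pump gene (0.18), SCO2 (0.20) and ODC1, for a mitochondrial oxodicarboxylate carrier (0.20). UGA3 lay nearest to CMR1 (0.078), ADE1 (0.10) and RSC2 (0.11), and UGA4 to MCM10 (0.19), NRE1 (0.20) and PHM8 (0.22). No gene was nearest to more than one of the 5.

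Genes that make or use glutamate, the substrate of Gad1, went both ways. Of 13, 6 rose and 5 fell, with a median log2 change of 0.50, beside 27.3% higher, 27.3% lower and a median of 0.0086 over all genes. Without vehicle replicate 1 or 2, 3 of the list fell. Of all 5707 genes 1116 and 1099 fell there, against 1558 with all 6 libraries. The minor NADP-linked glutamate dehydrogenase gene GDH3 rose, with 49.8, 30.6 and 22.4 TPM in the edelfosine libraries, against 2.66, 1.99 and 4.02 TPM in the vehicle libraries. Its log2 change was 2.62 ± 0.30 (adjusted p = 0.00115, limma). GDH1, the other NADP-linked glutamate dehydrogenase gene of the list, is given after its values were seen. It had 466, 244 and 299 TPM in the edelfosine libraries, against 575, 460 and 388 TPM in the vehicle libraries. GDH1 thus had far more transcript than GDH3 in every library, and it fell by 1.14 ± 0.28 (adjusted p = 0.0144, limma). PUT2, whose enzyme completes the breakdown of proline to glutamate, rose by 1.37 ± 0.16 (adjusted p = 0.00113, limma). AAT1, a mitochondrial aspartate aminotransferase gene, fell by 1.68 (adjusted p = 0.00116, limma; -1.11 in unscaled TPM), and IDP1, for mitochondrial NADP-linked isocitrate dehydrogenase, fell by 1.00 (adjusted p = 0.00283, limma). In unscaled TPM IDP1 did not pass (-0.40, adjusted p = 0.0776, limma), and AAT1 was the only gene of the list called lower there.

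All 10 genes listed as citric acid cycle steps beside the shunt rose, by a median of 1.24 on the log2 scale. That count was 6 without vehicle replicate 3 and in W303 alone, with 0 lower in each. Of all 5707 tested genes, 1182 and 1204 were called higher in those fits, against 1557 (27.3%) with all 6 libraries. The median over all genes was 0.0086 with all 6. SDH1, SDH2, SDH3 and SDH4 of this list act on succinate, after the shunt has rejoined the cycle. LSC2 (2.16), KGD2 (1.66), KGD4 (1.63) and KGD1 (1.42) had the smallest adjusted p, between 0.000530 and 0.00127 (limma). The changes of UGA1 and UGA2 were close to those of KGD2 and KGD4, and that of GAD1 was larger than any in the list; these differences between genes were not tested.

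Of 12 regulators known to act on GABA genes, 3 rose, 1 fell and 8 were not called. Over all genes 27.3% were called higher, 27.3% lower and 2592 of 5707 not called. The list median was -0.17 and turned to 0.35 with TPM as deposited. Without vehicle replicate 2, 0 regulators rose, where 1085 of all 5707 genes did, against 1557 with all 6 libraries. The count of rises was 1 when edelfosine replicate 3, vehicle replicate 1 or vehicle replicate 3 was left out. Of all genes 1240, 1096 and 1182 rose in those fits. When edelfosine replicate 1 or 3 or vehicle replicate 3 was left out, 2 regulators fell. Of all genes 1692, 1172 and 1207 fell there, against 1558 with all 6 libraries. Fewer rises were thus called among genes at large in these smaller fits too, except without edelfosine replicate 1 (1684). DAL80, a GATA-family repressor of UGA4, fell by 1.29 (adjusted p = 0.00545, limma). It had 14.7, 9.71 and 0.374 TPM in the edelfosine libraries, against 26.3, 21.1 and 0.998 TPM in the vehicle libraries, so both BY4741 libraries were near 0. Its change was -0.80 in unscaled TPM, and a fit that left out strain no longer called it (adjusted p = 0.422). PTR3, SSY1 and STP1, all of the amino acid sensing pathway at the plasma membrane, were called higher at 0.59, 0.52 and 0.49 (adjusted p = 0.00985, 0.0236 and 0.0437, limma). These calls were fragile: PTR3 was lost without vehicle replicate 2 (adjusted p = 0.0553), SSY1 in 5 of 15 alternatives and STP1 in 7 of 16. SSY1 was lost without vehicle replicate 1, 2 or 3 or edelfosine replicate 3 and in W303 alone (0.0627 to 0.0900), and STP1 without any library except edelfosine replicate 1 (0.0646 to 0.209), in W303 alone (0.199) and with the replicate block (0.0631).

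The other carriers of GABA are the general amino acid permease Gap1 and the proline permease Put4. GAP1 had 126, 49.8 and 22.2 TPM in the edelfosine libraries, against 330, 269 and 18.2 TPM in the vehicle libraries. It was lower with edelfosine in both W303 pairs, and the BY4741 values were close together and low. Its log2 change was -1.77 ± 0.57 (adjusted p = 0.0364, limma), moving to -1.13 without edelfosine replicate 2, -2.57 without edelfosine replicate 3 and -2.59 without vehicle replicate 3. The call was lost without vehicle replicate 1 (-1.52) or 2 (-1.56; adjusted p = 0.142 for each), with TPM as deposited (0.0726), with no filter (0.0567) and without the strain term (0.245). PUT4 had 23.8, 23.6 and 3.11 TPM in the edelfosine libraries, against 14.0, 13.3 and 1.53 TPM in the vehicle libraries. Its log2 change of 0.19 ± 0.14 did not pass (adjusted p = 0.294, limma), though with TPM as deposited it was called higher (0.74; adjusted p = 0.00865).

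Of 15 genes for using poor nitrogen sources, 6 rose and 5 fell (median 0.16), against 3 and 3 without vehicle replicate 1 or 2. The shares over all genes were 27.3% higher and 27.3% lower with all 6 libraries. Without vehicle replicate 1 or 2, 1096 and 1085 of all 5707 genes rose and 1116 and 1099 fell. With all 6 libraries 1557 rose and 1558 fell. The list median was -0.15 without edelfosine replicate 2 and -0.041 without vehicle replicate 2. The lists share genes: CAR2, PUT1 and PUT2 were counted with the glutamate genes too, and GAP1 and PUT4 with the carriers. PUT2 and PUT1, both for proline breakdown, rose, PUT1 by 0.96 ± 0.16 (adjusted p = 0.00313, limma). The arginase gene CAR1 fell by 0.92 (adjusted p = 0.00416, limma), and the urea amidolyase gene YBR208C, DUR12 in RefSeq, fell by 1.61 (adjusted p = 0.000767, limma; -0.94 with a pseudocount of 5). PUT1 was at 1.53 in unscaled TPM. The call of PUT1 was lost without the strain term (adjusted p = 0.229), and that of CAR1 there (0.0649) and with TPM as deposited (0.166).

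Among 17 genes whose proteins belong to the same families as the 5, 6 rose and 4 fell. Of all tested genes 27.3% were called higher and 27.3% lower. CAR2 and DAL81 are in lists above as well. The list median was 0.051, or -0.11 without edelfosine replicate 1. Without vehicle replicate 1, 2 genes of the list fell, and 1116 of all 5707 did, against 1558 with all 6 libraries. The aldehyde dehydrogenase genes ALD3 (6.93), ALD2 (2.26) and HFD1 (1.83), relatives of UGA2, rose (adjusted p between 6.61e-05 and 0.000774, limma). ALD4, ALD5, ALD6 and MSC7, the other aldehyde dehydrogenase genes of the list, fall outside the naming rule and are given after their values were seen. ALD4, for the main mitochondrial form, rose by 4.29 ± 0.43 (adjusted p = 0.000850, limma). ALD5, for another mitochondrial form, had 91.1, 61.1 and 26.1 TPM in the edelfosine libraries, against 121, 98.7 and 97.4 TPM in the vehicle libraries, and fell by 1.58 (adjusted p = 0.00385, limma; -0.98 in unscaled TPM). ALD6 (-0.77) and MSC7 (0.051) did not pass (adjusted p = 0.0959 and 0.788, limma), ALD6 being called lower without edelfosine replicate 2 (-1.15; adjusted p = 0.00194) and MSC7 higher with TPM as deposited (0.64; adjusted p = 0.0156). Of these 7 relatives of UGA2, 4 thus rose, 1 fell and 2 were not called. HNM1, the choline transporter gene related to UGA4, fell by 2.24 (adjusted p = 0.000306, limma), while UGA4 did not pass. ALD2 and ALD3 are closely similar neighbours, so reads may have been shared between them.

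**Figure D4:**
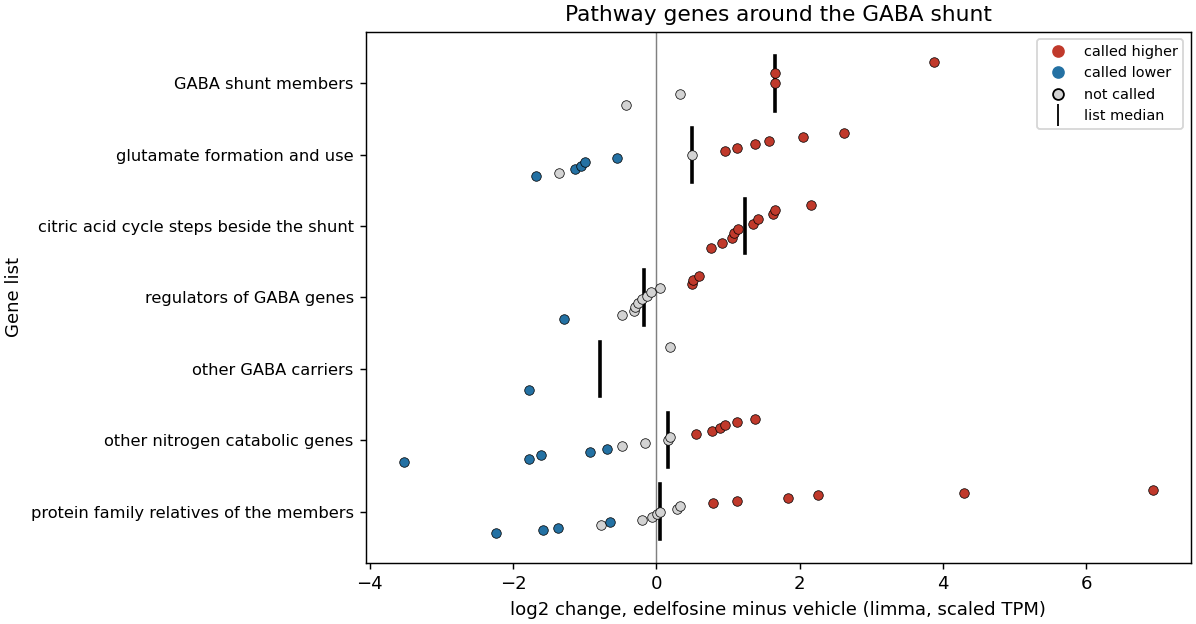
The log2 change, edelfosine minus vehicle, of each gene in the 7 lists (limma, scaled TPM): red points were called higher, blue lower, grey not called, and black bars mark list medians. All 10 citric acid cycle genes beside the shunt lie to the right of 0, while the nitrogen, regulator and glutamate lists lie on both sides.

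In the R64 annotation no gene overlaps any of the 5, and no other row of the table held values identical to theirs. Of their 9 neighbouring protein-coding genes 2 rose, 4 fell and 3 were not called. The shares were 27.3% higher and 27.3% lower over all genes. A pair of neighbours of UGA3 was singled out after its values were seen. UGX2 (YDL169C), 159 bases beyond the end of UGA3 and on the other strand, had 84.0, 125 and 87.8 TPM in the edelfosine libraries, against 6.56, 5.48 and 7.24 TPM in the vehicle libraries. It rose by 3.17 ± 0.19 (adjusted p = 0.000212, limma) next to a gene that did not pass. Whether the counting used strand is not given in the sources used here. GLT1, for glutamate synthase, which starts 677 bases from UGA3 and runs the other way, changed by -1.05 ± 0.21 (adjusted p = 0.00626, limma) and did not pass in unscaled TPM (-0.54; adjusted p = 0.0675).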

How the data were processed

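The authors deposited a single gene-by-library table named as read counts. Its values are fractional and all columns add up to an equal total, so the deposited values were read as TPM. Per the submitters' processing notes, kallisto and sleuth were used, with no version, transcript set or build stated. Since TPM carries no depth, read depth is unknown and no counting interval can be given. Between 5550 and 5717 genes reached 1 TPM per library. MET17, LEU2 and URA3 were near 0 in both BY4741 libraries and in no W303 library. R64 gene names matched 5911 rows.

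Rows with at least 1 TPM in 3 libraries were kept. Scaling used a trimmed mean of M values without weights (30% of M and 5% of A trimmed at each end; factors 0.715 to 1.25, all 3 edelfosine factors above all vehicle factors). Changes were fitted on log2(scaled TPM + 1), which understates low genes, with limma 3.58.1 in R 4.3.3 (mean-variance trend, strain and treatment; 3 residual and 3.41 prior degrees of freedom). The code was tested on simulated data. Alternatives covered scaling, filter, pseudocount, design, trend and left-out libraries. The 5 genes, set by gene ID, and the lists were proposed with earlier results of these data known. From each list up to 4 called genes with the smallest adjusted p were named, both carriers, and the 3 nearest profiles per gene. The 600-base window was added after the data were seen, because the known Uga3 sites lie outside 250 bases.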

Additional observations from a re-analysis of the deposited data

How the results depend on the processing

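GAD1, UGA1 and UGA2 were called higher in all 16 alternatives run for each, with log2 changes of 3.59 to 4.46, 1.56 to 2.25 and 1.39 to 2.26 and highest adjusted p of 0.00679, 0.0128 and 0.0231 (limma). Without each library in turn, 3 to 4 of the 5 genes were called higher and 0 lower. Of all 5707 genes, 1085 to 1684 were called higher and 1099 to 1692 lower in those fits. The main fit called 1557 higher and 1558 lower. With at least 10 TPM in 3 libraries UGA4 was not tested. With TPM as deposited, 2837 genes were called higher and 760 lower, UGA3 turned to 0.12, and 1 glutamate, 2 other nitrogen and 2 family genes were called lower. Among the carriers 1 was then called higher and 0 lower. List medians were then 1.08 (glutamate), 1.85 (citric acid cycle), 0.35 (regulators), 0.58 (other nitrogen) and 0.64 (family relatives). Without the strain term 0 regulators, 0 carriers and 3 other nitrogen genes were called lower (1504 of all genes). With the replicate block 2 regulators were called lower (1529 of all genes). In W303 alone 6 citric acid cycle genes and 1 regulator were called higher, 2 regulators lower, and the family median was 0.21. Of all genes 1204 were called higher and 1217 lower in W303 alone. MSC7 turned to -0.012 there and to -0.011 without vehicle replicate 3. Without each library in turn, counts called higher and lower were 5 to 7 and 3 to 5 (glutamate), 6 to 10 and 0 (citric acid cycle), 0 to 3 and 1 to 2 (regulators), 0 and 0 to 1 (carriers), 3 to 6 and 3 to 6 (other nitrogen) and 4 to 6 and 2 to 5 (family); medians of the last pair of lists ran from -0.15 to 0.21 and from -0.11 to 0.22. Deviations of same-numbered libraries from their group means had correlations of 0.33, 0.052 and 0.51 for replicates 1 to 3. These deviations include the strain difference, so they cannot settle whether the numbers mark pairs. The main fit did not use the numbers as pairs. Under the replicate block GAD1, UGA1 and UGA2 had adjusted p = 0.000342, 0.00146 and 0.00436 (limma) and no member changed its call. The UGA1 to UGA2 ratio had no stable sign: its difference ran from -0.22 to 0.18 without each library in turn. Depth is unknown, which limits UGA4 most, at under 7 TPM.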
